A study of Sus scrofa with 23 samples.

Results

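Glycogen is the branched glucose store of muscle and liver. It is started on the self-glucosylating primer glycogenin, extended from UDP-glucose by glycogen synthase, and degraded by glycogen phosphorylase to glucose 1-phosphate, which phosphoglucomutase joins to glycolysis. Muscle keeps its glycogen for its own contraction, whereas liver releases glucose to the blood, and the tissues use different phosphorylase and synthase genes.

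The genes described here are 6 genes of this cycle, chosen by symbol: GYG1, PGM1, UGP2, PYGM, PPP1R3B and STBD1. They were chosen with earlier results of these data known. On a porcine Affymetrix expression array they were measured by all 11 probe sets that carry only 1 of these symbols, of 24123 probe sets on the array and 6765 named genes. PYGM had 4 probe sets, UGP2 and STBD1 had 2 each, and the other 3 genes had 1 each. All 11 were tested, and no filter on low values was applied. A probe set is a group of short probes for 1 or more transcripts, and its value is a linear fluorescence signal in arbitrary units.

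The arrays held RNA from 23 offspring of German Landrace gilts that received a low-protein diet in gestation. They were sampled before birth at 94 days post conception (94 dpc, 5 animals) and after birth at 1, 28 and 188 days post natum (1, 28 and 188 dpn, 6 animals each), taken as the usual reading of the labels' abbreviations. All 4 stages share the diet, so the comparisons are between ages and hold no test of diet. The offspring came from 3 gilts per stage and the dam is not labelled, so some animals of a stage shared a dam, and the p-values below, which treat animals as independent, may be too small.

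Each sample is labelled liver, whereas the title of the series names muscle. The 18 measured skeletal muscle markers had a median percentile rank of 99.0 to 99.8 among all probe sets in every sample. Their summed signal had medians of 460244, 631594, 860124 and 1011470 at 94 dpc, 1, 28 and 188 dpn. The 18 measured hepatocyte markers had a median rank between 16.1 and 87.6, and medians of their summed signal of 20356, 14137, 3493 and 10593. The mean signal of ALB, the albumin gene, was 385, 1230, 1173 and 3640 at the 4 stages, while that of CKM, muscle creatine kinase, was 42902, 60449, 73093 and 86742. The markers thus go against the label, and the samples are called samples labelled liver or are named by stage below. The median muscle marker sum was higher at each later stage, as were the means of PYGM, PGM1 and GYG1. Those of UGP2, PPP1R3B and STBD1 did not rise at every stage. Sums of other cell types moved as well. The 7 markers of matrix-forming cells had medians of 58357, 22594, 20015 and 15289 in order of age, and the 7 endothelial markers 11941, 4739, 7230 and 3746. The medians were 6034, 8957, 7342 and 3806 for the 5 adipocyte markers measured, 1673, 972, 1879 and 677 for the 4 erythroid ones, and 1716, 1306, 2305 and 720 for the 5 macrophage ones. The part of these cell types in the results was not tested. In such bulk samples, more cells of a type and more RNA per cell cannot be told apart.

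The samples of 1 dpn were less uniform than those of the other stages. In 3 of them, replicates 2, 4 and 5, the signal ratio of the 5′ to the 3′ GAPDH control probe set, a measure of how complete the labelled RNA is, was 0.0868 to 0.148, against 1.09 to 1.29 in the other 20 samples of the series. The same ratio for EF1a was also low in them, at 0.101 to 0.125 against 0.458 to 1.08 in the other 20, whereas that for actin was 0.817 to 1.01 against 0.820 to 1.61. Replicate 1 of 1 dpn correlated with the samples of 28 dpn at a median r of 0.910, and with those of its own stage at 0.893. For replicate 3 both values were 0.914. The muscle marker sum of replicate 1 was 888352, against 501398 to 704327 in the other samples of 1 dpn. The 11 probe sets were refitted without the 3 samples of low GAPDH ratio, and without replicate 1. Over the 3 stage pairs that hold 1 dpn, 27 of 33 changes kept direction and side of the threshold without the 3 samples of low GAPDH ratio, and 31 of 33 did without replicate 1.

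Stage means of log2(signal + 16) were compared with limma, over all 23999 non-control probe sets. A change is the later minus the earlier stage on that scale. A probe set was called at a Benjamini-Hochberg adjusted p under 0.05, and errors are SE for changes and SD for signals. All 11 probe sets were called over the 4 stages by the F test, against a background of 46.6% of all probe sets. The plot of signals by stage shows the lowest means at 94 dpc in 5 of the genes and at 1 dpn in STBD1, and the highest means of PPP1R3B at 1 and 28 dpn.

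**Figure D1:**
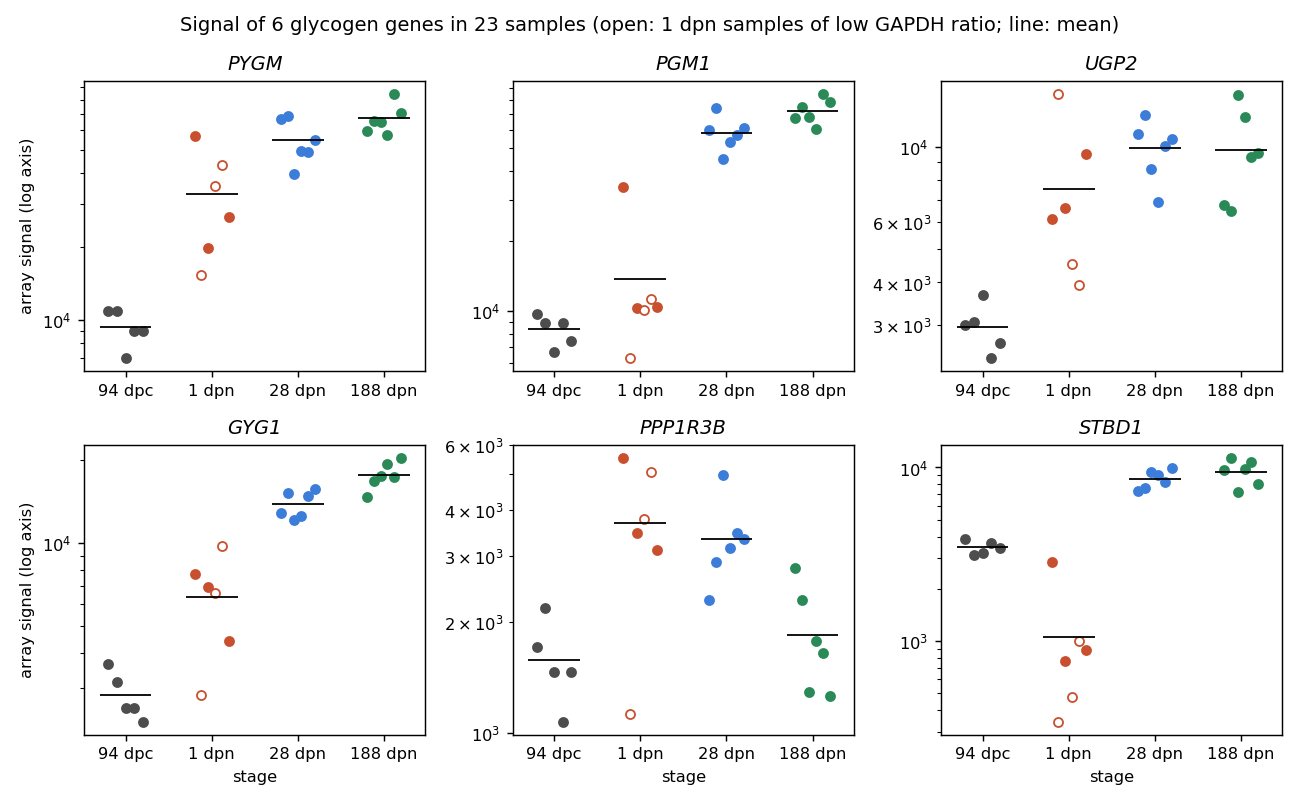
Array signal (log axis) of the 6 genes, each by its brightest probe set, in 5 samples of 94 dpc and 6 each of 1, 28 and 188 dpn. Points are samples, open points are the 3 samples of 1 dpn with a low GAPDH ratio, and lines are means; STBD1 of 1 dpn lies below every other stage, and PGM1 has a single newborn value, 33922, above its other 5.

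GYG1 encodes glycogenin-1, the primer on which a glycogen particle is started. Its signal was 3654, 3155, 2522, 2522 and 2260 in the samples of 94 dpc. At 1 dpn it ran from 2825 over a median of 6762 to 9776, at 28 dpn from 12075 to 15644, and at 188 dpn from 14621 over 17403 to 20311. The newborn samples reached down into the fetal range, whereas the 28 dpn samples lay above all newborn ones. GYG1 rose by 1.09 ± 0.23 at 1 dpn against 94 dpc (adjusted p = 0.00127) and by 1.21 ± 0.22 at 28 dpn against 1 dpn (adjusted p = 0.000538). Without the newborn samples of low GAPDH ratio these were 1.15 at both steps, and both stayed called. The change at 188 dpn against 28 dpn was 0.35 ± 0.22, with a 95% interval of -0.11 to 0.81 (adjusted p = 0.358), so these neighbours were not told apart. GYG1 was 6.28-fold higher at 188 dpn than at 94 dpc, with means of 17628 ± 1991 (n = 6) and 2822 ± 570 (n = 5).

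PGM1 encodes phosphoglucomutase 1, which interconverts glucose 1-phosphate and glucose 6-phosphate and so serves both synthesis and breakdown. Its signal was 9743, 8879, 6656, 8907 and 7464 at 94 dpc. At 1 dpn the lowest, median and highest values were 6287, 10347 and 33922. They were 44851, 58158 and 73909 at 28 dpn, and 60361, 71363 and 85041 at 188 dpn. The fetal and newborn samples overlapped, and all 12 samples of 28 and 188 dpn lay above all 11 earlier ones. The called step lay between 1 and 28 dpn, where PGM1 rose 4.89-fold (change 2.29 ± 0.26, adjusted p = 2.56e-06). Without replicate 1 of 1 dpn, the highest newborn sample, this step was 6.05-fold, and without the newborn samples of low GAPDH ratio it was 3.74-fold, called in both fits. The change was 0.51 ± 0.27 at 1 dpn against 94 dpc (adjusted p = 0.191) and 0.32 ± 0.26 at 188 dpn against 28 dpn (adjusted p = 0.494). Without the samples of low ratio the change at 1 dpn against 94 dpc was 0.90 and was called (adjusted p = 0.0306), and with each array centred on its median it was 0.78 (adjusted p = 0.0308).

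UGP2 encodes UDP-glucose pyrophosphorylase, which makes the activated glucose that glycogen synthase adds. Its brighter probe set, Ssc.5264.1.A1_at, had signals of 2992, 3057, 3681, 2403 and 2656 at 94 dpc. At 1 dpn they ran from 3934 over a median of 6380 to 14263, at 28 dpn from 6873 over 10294 to 12405, and at 188 dpn from 6463 over 9460 to 14162. Every postnatal sample lay above every fetal one, and the 3 postnatal stages overlapped. The gene rose 2.31-fold at 1 dpn against 94 dpc (change 1.21 ± 0.28, adjusted p = 0.0022; 1.31 without the newborn samples of low GAPDH ratio), and no further step was called. At 28 dpn against 1 dpn the change was 0.52 ± 0.27 (adjusted p = 0.202), and at 188 dpn against 28 dpn it was -0.05 ± 0.27, with a 95% interval of -0.60 to 0.50. Replicate 2 of 1 dpn held the highest newborn value. Without it, the changes against 1 dpn were called, at 0.73 for 28 dpn (adjusted p = 0.0413) and 0.68 for 188 dpn (adjusted p = 0.0382).

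The dimmer UGP2 probe set, Ssc.30801.1.A1_at, had means of 840 ± 318, 1337 ± 714, 2102 ± 302 and 1900 ± 534 at 94 dpc, 1, 28 and 188 dpn. It was called higher at 28 dpn against 94 dpc (1.38 ± 0.29, adjusted p = 0.00114) and at 188 dpn against 94 dpc (1.20 ± 0.29, adjusted p = 0.00186), but not at 1 dpn against 94 dpc (0.60 ± 0.29, adjusted p = 0.135; 0.88 with median centring, adjusted p = 0.0332). Its change at 28 dpn against 1 dpn was 0.78 ± 0.28 (adjusted p = 0.0554), and 1.00 without replicate 2 of 1 dpn (adjusted p = 0.00709). Without all 3 newborn samples of low GAPDH ratio it was called as well, at 0.95 (adjusted p = 0.025), and so was 188 dpn against 1 dpn, at 0.78 (adjusted p = 0.0451). The order of the stages was the same for both probe sets, with 28 dpn highest, followed by 188 dpn, 1 dpn and 94 dpc. The log2 difference between both did not change past the threshold in any of the 6 stage pairs by an exact permutation test (lowest adjusted exact p = 0.0885).

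PYGM encodes muscle glycogen phosphorylase, the enzyme that releases glucose 1-phosphate from glycogen. Its 4 probe sets were 7.21-, 10.4-, 33.4- and 39.4-fold higher at 188 dpn than at 94 dpc, with adjusted p from 7.56e-10 to 6.94e-08, beside 8.69-fold for PGM1. Under quantile normalization the log2 change at this pair was 2.21 in place of 2.85 for the least changed PYGM probe set, Ssc.19476.2.A1_s_at, and 2.49 in place of 3.12 for PGM1. That probe set, the brightest of the 4, had signals of 10919, 10838, 6974, 9004 and 9007 at 94 dpc. Its lowest, median and highest values were 15247, 30852 and 56771 at 1 dpn, 39569, 51943 and 68958 at 28 dpn, and 57620, 65518 and 84436 at 188 dpn. All newborn samples lay above all fetal ones, and neighbouring postnatal stages overlapped. The rise was 1.68 ± 0.26 at 1 dpn against 94 dpc (adjusted p = 4.38e-05) and 0.86 ± 0.25 at 28 dpn against 1 dpn (adjusted p = 0.0195), while the change at 188 dpn against 28 dpn was 0.31 ± 0.25 (adjusted p = 0.485). The call at 28 dpn against 1 dpn was lost without replicate 2 of 1 dpn (0.66, adjusted p = 0.0519), without all 3 low-ratio samples (0.80, adjusted p = 0.0518), with that ratio as a covariate (0.72, adjusted p = 0.146) and when only those stages were fitted (adjusted p = 0.0918).

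The 4 PYGM probe sets agreed on the order of the stages, which was 188 dpn, 28 dpn, 1 dpn and 94 dpc from high to low, but not on where the rise lay. In both brighter ones it was called at 1 dpn against 94 dpc and at 28 dpn against 1 dpn, the first for Ssc.18344.1.S1_at not when only those stages were fitted (1.27, adjusted p = 0.0663). Ssc.18344.1.S1_at had means of 6778 ± 1996, 19374 ± 12923, 55866 ± 8373 and 69158 ± 12778 at the 4 stages in order of age. The dimmer Ssc.18344.2.A1_at and Ssc.19476.1.S1_at were called at 28 dpn against 1 dpn and again at 188 dpn against 28 dpn.

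Ssc.18344.2.A1_at had signals of 1142, 1252, 732, 482 and 454 at 94 dpc, 353 to 4101 with a median of 1281 at 1 dpn, 6643 to 12075 at 28 dpn and 20942 to 28728 with a median of 26714 at 188 dpn. Each of its 188 dpn samples lay above each of its 28 dpn samples, and the change was 1.48 ± 0.38 (adjusted p = 0.00966). Ssc.19476.1.S1_at ran from 12384 over a median of 15996 to 18968 at 188 dpn, against 4509, 7417 and 8373 at 28 dpn. Here too the stages did not overlap, and the change was 1.22 ± 0.41 (adjusted p = 0.047). That second call was lost under quantile normalization (adjusted p = 0.0631), with a pseudocount of 1 (adjusted p = 0.0677) and when any single one of the 12 samples was left out.

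**Figure D2:**
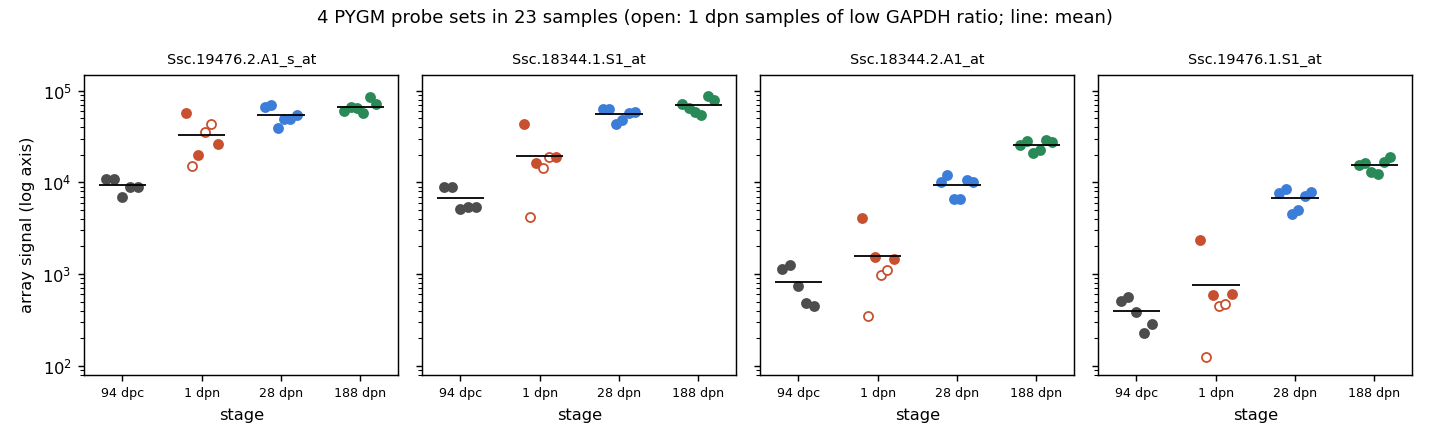
Array signal (shared log axis) of the 4 PYGM probe sets in the 23 samples, by stage. Points are samples, open points the 3 samples of 1 dpn with a low GAPDH ratio, and lines are means; the 28 and 188 dpn samples overlap in the left pair and do not overlap in the right pair.

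This difference between the probe sets was measured as the mean log2 value of the dimmer pair minus that of the brighter pair, a comparison added after the values had been seen. It was -1.77 ± 0.14 at 188 dpn and -2.81 ± 0.18 at 28 dpn (SD, n = 6 each), a difference of 1.04. By a two-sided exact permutation test p was 0.00216, the smallest that 924 permutations allow, and 0.00649 after adjustment over 18 such tests. The difference was 1.89 at 28 dpn against 1 dpn (adjusted exact p = 0.00649), and -0.87 at 1 dpn against 94 dpc (adjusted exact p = 0.0545). The files do not say which part of the transcript each probe set covers. Control measures also differed between stages or samples. The Dap control, a transcript added to the RNA, had 5′ to 3′ ratios between 0.264 and 0.359 in the 188 dpn samples and between 0.0511 and 0.0977 in those of 28 dpn. Its median ratio was 0.370 at 94 dpc, 0.123 at 1 dpn and 0.0816 at 28 dpn. Within stages it ranged from 0.0622 to 0.409 at 94 dpc and from 0.0657 to 0.361 at 1 dpn. At 94 dpc, replicates 4 and 5 had the lowest Dap ratios, 0.0916 and 0.0622. These replicates also had the lowest fetal signals of both dimmer PYGM probe sets (482 and 454 for Ssc.18344.2.A1_at, 228 and 286 for Ssc.19476.1.S1_at). The dimmer PYGM probe sets were lower in the newborn samples of low GAPDH ratio (353 to 1096 and 124 to 467) than in the other 3 newborn samples (1467 to 4101 and 588 to 2354), whereas the other 9 probe sets overlapped between these samples. The part of either in the PYGM values was not tested.

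Without the 3 newborn samples of low GAPDH ratio, all 4 PYGM probe sets were called higher at 1 dpn than at 94 dpc. The dimmer ones then had changes of 1.48 (adjusted p = 0.00427) and 1.31 (adjusted p = 0.0147), against 0.72 ± 0.40 (adjusted p = 0.199) and 0.50 ± 0.43 (adjusted p = 0.434) with all samples. For the brighter Ssc.18344.1.S1_at the change was 1.86, against 1.27 with all samples, and 1.98 with the ratio as a covariate. For Ssc.19476.2.A1_s_at it was 1.74, against 1.68. The size of the later step also depended on these samples. At 28 dpn against 1 dpn the changes of Ssc.18344.1.S1_at, Ssc.18344.2.A1_at and Ssc.19476.1.S1_at were 1.81 ± 0.34, 2.87 ± 0.38 and 3.58 ± 0.41 with all samples, and 1.22, 2.11 and 2.77 without those 3. All remained called.

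PPP1R3B encodes a targeting subunit that brings protein phosphatase 1 to glycogen, where it favours synthesis over breakdown, and is best known from liver. It followed another course, with its highest means at 1 and 28 dpn, which were not told apart. Its signal was 1710, 2183, 1465, 1074 and 1461 at 94 dpc. The lowest, median and highest values were 1130, 3630 and 5536 at 1 dpn, 2292, 3245 and 4964 at 28 dpn, and 1263, 1709 and 2790 at 188 dpn. All 28 dpn samples lay above all fetal ones, and 5 of the 6 newborn samples did. PPP1R3B rose at 1 dpn against 94 dpc (1.10 ± 0.32, adjusted p = 0.0126; 1.34 without the newborn samples of low GAPDH ratio) and was also higher at 28 dpn than at 94 dpc (1.08 ± 0.32, adjusted p = 0.0158). The change at 28 dpn against 1 dpn was -0.02 ± 0.30, with a 95% interval of -0.65 to 0.61.

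By 188 dpn PPP1R3B was lower than at 1 dpn (-0.90 ± 0.30, adjusted p = 0.0276) and not told apart from 94 dpc (0.20 ± 0.32, adjusted p = 0.675). Its mean was 1841 ± 595 at 188 dpn and 3353 ± 893 at 28 dpn, a change of -0.88 ± 0.30 that missed the threshold (adjusted p = 0.0559). It passed under 7 of the other settings, such as array weights (-0.92, adjusted p = 0.0122) and the fit of only these 2 stages (adjusted p = 0.0197). The calls at 1 dpn against 94 dpc and at 188 dpn against 1 dpn were lost when only the stages compared were fitted (adjusted p = 0.0507 and 0.087). The call at 188 dpn against 1 dpn was also lost when any of 5 single samples was left out, namely replicates 1, 4 and 5 of 1 dpn and 3 and 6 of 188 dpn, and the call at 28 dpn against 94 dpc was lost without replicate 4 of 94 dpc (adjusted p = 0.051).

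STBD1 encodes a glycogen-binding protein with a starch-binding domain that anchors glycogen to membranes. It was the only gene of the 6 called lower at 1 dpn than at 94 dpc. Ssc.13948.1.S1_at had signals of 3884, 3149, 3213, 3684 and 3435 at 94 dpc. At 1 dpn its values were 2859, 343, 767, 477, 1001 and 891, all below the lowest fetal value. They ran from 7272 over a median of 8681 to 9866 at 28 dpn, and from 7176 over 9687 to 11361 at 188 dpn. The newborn samples thus formed a trough between separate, higher stages. STBD1 was 4.11-fold lower at 1 dpn than at 94 dpc (change -2.04 ± 0.33, adjusted p = 6.25e-05) and 10.1-fold higher at 28 dpn than at 1 dpn (3.34 ± 0.31, adjusted p = 1.87e-07). With the GAPDH ratio as a covariate these changes were -1.41 and 2.70, and without the newborn samples of low ratio they were -1.45 and 2.75. Without replicate 1 of 1 dpn, the highest newborn sample, they were -2.39 and 3.69, a 12.9-fold rise at 28 dpn. Both stayed called in all of these fits. The endothelial marker sum was also low at 1 dpn, with 3419 to 5485, against 9131 to 15130 at 94 dpc and 6424 to 9165 at 28 dpn. At 188 dpn, the stage of the highest mean STBD1 signal, that sum was low as well, at 2738 to 4141. The medians of the erythroid and macrophage marker sums were also lower at 1 dpn than at 94 dpc and 28 dpn, and lowest at 188 dpn. The part of these cell types in the STBD1 values was not tested.

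The fetal level was also below the older ones, with a rise of 1.30 ± 0.33 at 28 dpn against 94 dpc (adjusted p = 0.00523) and 1.43 ± 0.33 at 188 dpn against 94 dpc (adjusted p = 0.00119). The change at 188 dpn against 28 dpn was 0.13 ± 0.31, with a 95% interval of -0.52 to 0.77. The dimmer STBD1 probe set, Ssc.13948.2.A1_a_at, had means of 1570 ± 207, 1017 ± 673, 4617 ± 482 and 5196 ± 514 at the 4 stages in order of age. Its newborn and fetal samples overlapped, because replicates 1 and 5 of 1 dpn had 1647 and 2070. It was called lower at 1 dpn than at 94 dpc (-0.84 ± 0.28, adjusted p = 0.0305). This call was lost under quantile normalization (-0.76, adjusted p = 0.0553), median centring (-0.57, adjusted p = 0.125), the fit of only these stages (adjusted p = 0.13), and when any of 7 single samples was left out (replicates 1, 4 and 5 of 94 dpc, and 2, 3, 4 and 6 of 1 dpn). The log2 difference of the dimmer from the brighter probe set was 0.05 ± 0.85 at 1 dpn and -1.14 ± 0.11 at 94 dpc, and this difference passed the exact permutation test (1.20, adjusted exact p = 0.0278). The size of the newborn dip thus depended on the probe set.

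**Figure D3:**
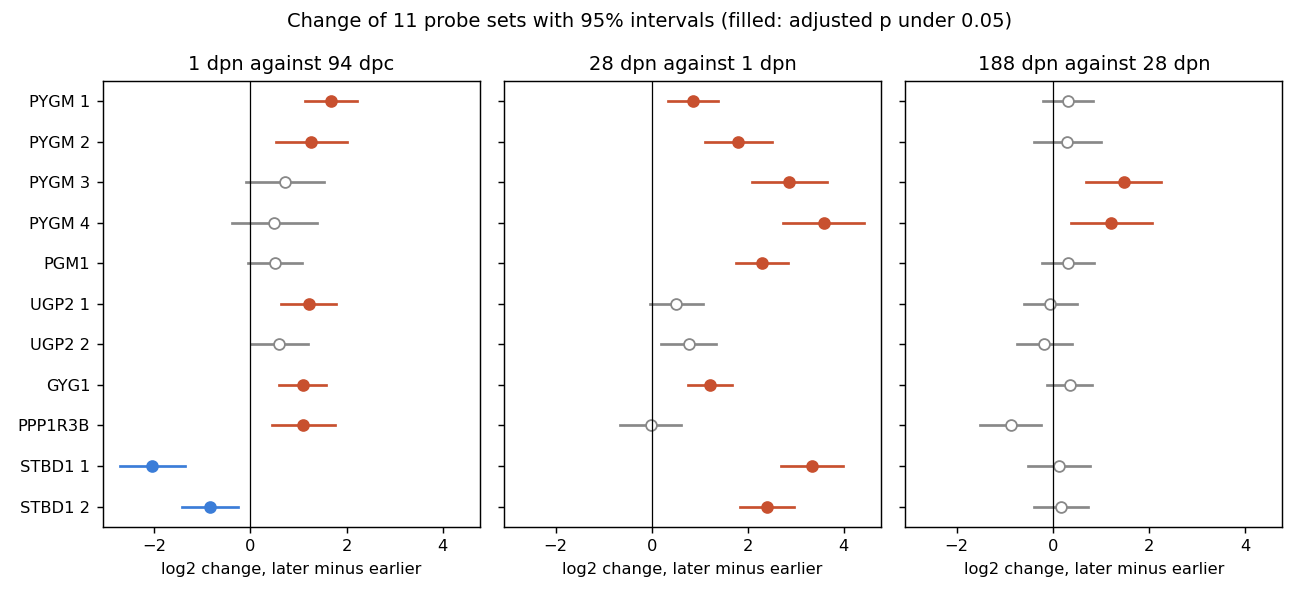
Change (log2, later minus earlier stage) of the 11 probe sets at each step, with 95% intervals, numbered from the brightest within a gene. Filled red is called higher, filled blue called lower and open grey not called; of the 11, 5 were called higher and 2 lower in the first panel, 8 higher in the second and 2 higher in the third.

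The genes were chosen with earlier results of these data known, and more of the 11 probe sets belong to PYGM than to any other gene. The counts below are therefore descriptions beside the backgrounds and no test of the group. Counted over the 6 stage pairs, most calls at single steps came before 28 dpn. At 1 dpn against 94 dpc, 5 of the 11 were called higher and 2 lower, against backgrounds of 8.08% and 17.9% of all probe sets. Samples of both stages did not overlap in 2 that were higher and 1 that was lower (backgrounds 4.2% and 9.66%). At 28 dpn against 1 dpn, 8 were called higher and 0 lower, against 10.1% and 7.03%, and 7 of the 8 did not overlap (background 4.14%). At 188 dpn against 28 dpn, 2 were called higher and 0 lower by limma, against 4.66% and 9.15%, and 1 (PPP1R3B) was lower at an unadjusted p under 0.05. At the other pairs with 0 lower, 0 were lower at that unadjusted p as well. The 2 of the last step were the dimmer PYGM probe sets, and their samples did not overlap, as in 4.45% of all probe sets.

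Across longer spans, 11 of 11 were called higher at 28 dpn than at 94 dpc and 0 lower (backgrounds 8.87% and 14.7%), with no overlap in any of the 11 (background 7.83%). PPP1R3B was the exception at 188 dpn against 94 dpc, where the other 10 were called higher and 0 lower (backgrounds 13.3% and 23.4%), each with no overlap (background 10.7%). Against 1 dpn, 8 were called higher at 188 dpn and PPP1R3B was called lower (backgrounds 13.6% and 15.6%), while both UGP2 probe sets were not called with all samples. Those 8 did not overlap (background 6.78%). The median change of the 11 at these 3 pairs was 2.30, 2.65 and 2.11, beside -0.10, -0.08 and -0.03 over all probe sets. At the 3 single steps it was 0.72, 1.81 and 0.30, beside -0.11, 0.03 and -0.03.

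These directions held under both other scalings, except for PPP1R3B at 28 dpn against 1 dpn and UGP2 at 188 dpn against 28 dpn, which were near 0 and not called. Across all probe sets the balance of calls did move with the scaling. At 1 dpn against 94 dpc 31.2% of called probe sets were higher as deposited, 47.3% after quantile normalization and 59.4% with each array centred on its median, and the median change of all probe sets was -0.11, 0.04 and 0.17. At 28 dpn against 94 dpc these shares were 37.6%, 50.2% and 59.1%, and at 188 dpn against 94 dpc 36.3%, 48.8% and 56.9%. For 188 dpn against 28 dpn they were 33.7%, 42.5% and 46.6%.

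The newborn samples differed from each other along a similar line in most of the probe sets, as the plot of newborn deviations shows. Replicate 1 was the highest of the 6 in 7 of the 11 probe sets and replicate 2 the lowest in 8. UGP2 ran the other way: replicate 2 was highest in both of its probe sets, with 14263 and 2687. With the stage means removed, UGP2 and PPP1R3B had a Pearson r of -0.68 and a Spearman rho of -0.58 over the 23 samples, and an r of -0.47 without replicate 2 of 1 dpn. PYGM and PGM1 had an r of 0.83 and a rho of 0.77 on the same measure, and an r of 0.77 without that sample. These are descriptions of samples that share arrays and scaling, and were not tested.

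**Figure D4:**
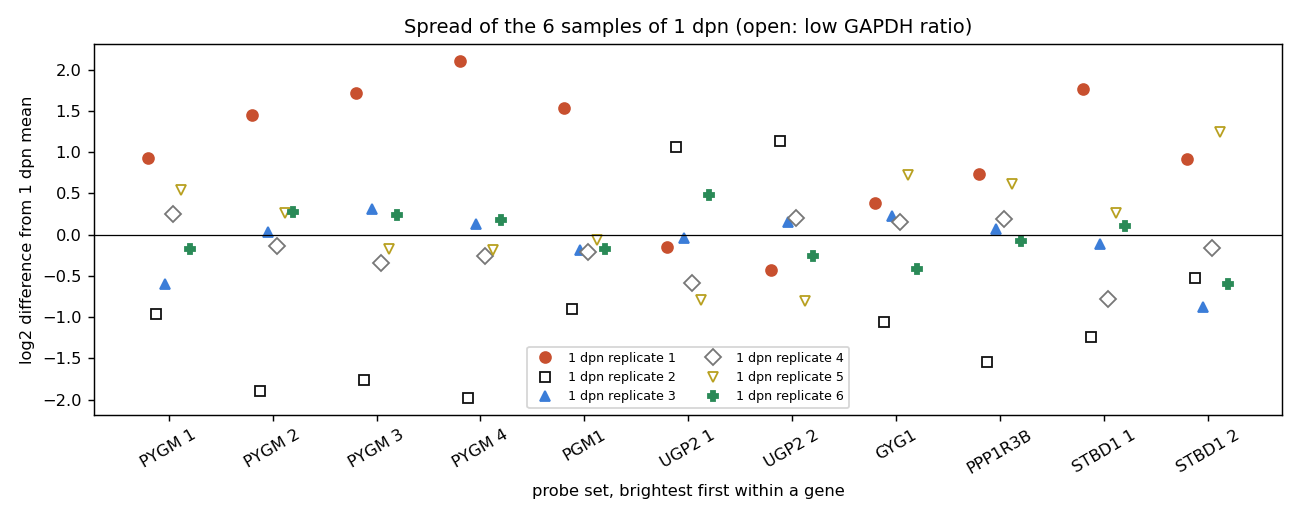
Log2 difference of each of the 6 samples of 1 dpn from the 1 dpn mean, for the 11 probe sets, numbered from the brightest within a gene. Symbols are replicates, and open symbols are the 3 with a low GAPDH ratio; replicate 2 is lowest in 8 probe sets and highest in both of UGP2.

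By their profile over the 23 samples, the named genes most like PYGM on the log2 scale were PPP1R1A (Pearson r = 0.974), an inhibitor subunit of protein phosphatase 1, EIF1 (0.974), a translation initiation factor, and PGK1 (0.968), a glycolytic kinase. For GYG1 they were PPP1R1A (0.975), PFKM (0.970), muscle phosphofructokinase, and UBE2D4 (0.965). PGM1 was most like ADSSL1 (0.983), the muscle adenylosuccinate synthase, TMOD4 (0.982), a sarcomeric tropomodulin, and GPI (0.980), glucose 6-phosphate isomerase.

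STBD1 was most like EGF (0.956), MYOM2 (0.950), a myomesin of the sarcomere, and GAMT (0.946), an enzyme of creatine synthesis. UGP2 was most like PDLIM5 (0.902), SAR1B (0.888) and RORA (0.875). PPP1R3B had the weakest likeness, with ANGPTL4 (0.788), ACOX2 (0.787) and PPIF (0.778). All of these correlations run over samples that fall into 4 stages. With the stage means removed, the highest was 0.937 for PGM1 with GPI and the lowest 0.527 for PPP1R3B with PPIF.

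Of 45 other genes listed for glycogen synthesis, breakdown, phosphatase targeting, and upstream kinases and glucose uptake, 26 were measured. They did not move in 1 direction. At 1 dpn against 94 dpc 5 were called higher and 5 lower (backgrounds of 13.7% and 19.4% of named genes), and their median change was 0.04, beside -0.06 over all genes. GYS1, muscle glycogen synthase, had 1757 ± 432 at 1 dpn and 720 ± 160 at 94 dpc, a rise of 1.27 ± 0.24 (adjusted p = 0.000402), although its 2 much dimmer probe sets were not called (0.54 and 0.57). After that step its means were flat, at 1728 for 28 dpn and 1707 for 188 dpn.

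PRKAB2, a regulatory subunit of the energy sensor AMPK, rose by 1.26 ± 0.25 at the same step, and AKT2, a kinase of insulin signalling, by 0.94 ± 0.16. HK1, a hexokinase, fell by 0.97 ± 0.20, SLC2A1, the basal glucose transporter, by 1.29 ± 0.32, and PRKAG2, another AMPK subunit, by 0.95 ± 0.27. The call for SLC2A1 was lost without the newborn samples of low GAPDH ratio (-0.81, adjusted p = 0.0879). That for PRKAG2 was lost under quantile normalization (adjusted p = 0.0681) and median centring (adjusted p = 0.0893).

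At 28 dpn against 1 dpn 7 were called higher and 4 lower (backgrounds 13.5% and 10.6%). The largest rise was in PHKB, a regulatory subunit of phosphorylase kinase, the enzyme that activates PYGM, with 9882 ± 1502 at 28 dpn and 2545 ± 638 at 1 dpn (1.97 ± 0.17, adjusted p = 3.68e-08). PRKAB2 rose again by 1.32 ± 0.23. PPP1CC and PPP1CB, catalytic subunits of protein phosphatase 1, rose by 0.94 ± 0.22 and 0.88 ± 0.22, and PRKAA2, the muscle catalytic subunit of AMPK, by 0.88 ± 0.29. PRKAG1, an AMPK subunit, fell by 1.04 ± 0.15. The other probe sets of PPP1CC, PPP1CB and PRKAG1 were not called at this step, and PRKAA2 lost its call under median centring (adjusted p = 0.057), in the fit of only these stages (adjusted p = 0.116), and when any of replicates 3, 4 and 6 of 1 dpn or 1, 3, 5 and 6 of 28 dpn was left out (adjusted p up to 0.08).

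At 188 dpn against 28 dpn 2 of the 26 were called higher and 3 lower (backgrounds 5.78% and 12.5%). SLC2A4, the insulin-responsive glucose transporter, had 321 ± 88 at 188 dpn and 167 ± 86 at 28 dpn (0.96 ± 0.28, adjusted p = 0.0229), and its 2 dimmer probe sets were not called. PHKB rose by 0.55 ± 0.17. SLC2A1 fell by 1.56 ± 0.31, HK1 by 1.06 ± 0.19, and PGM2, a phosphopentomutase, by 0.83 ± 0.25. The dimmer probe sets of PPP1CC and PPP1CB, which are outside these counts, were called higher at this step. They rose by 1.46 ± 0.43 (adjusted p = 0.0251) and 1.51 ± 0.39 (adjusted p = 0.0104), whereas the brighter probe sets of both genes were not called. The calls of SLC2A4, PHKB and PGM2 at this step were each lost when 1 of several single samples was left out: replicate 6 of 28 dpn or 2 or 3 of 188 dpn for SLC2A4 (adjusted p up to 0.0674), replicate 1, 3 or 4 of 28 dpn for PHKB (up to 0.0623), and replicate 1, 2 or 6 of 28 dpn or 2, 4 or 6 of 188 dpn for PGM2 (up to 0.0753).

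Over the whole span, at 188 dpn against 94 dpc, 9 were called higher and 10 lower (backgrounds 19.5% and 27.4%). PHKB was 10.3-fold higher (14431 ± 1113 at 188 dpn and 1393 ± 195 at 94 dpc), PRKAB2 rose by 2.95 ± 0.25 and PRKAA2 by 1.86 ± 0.30. SLC2A1 fell by 3.02 ± 0.32, HK1 by 1.88 ± 0.20 and PGM2 by 1.85 ± 0.26. SLC2A1 was dim at 188 dpn, with signals of 14.9 to 90.4, and with a pseudocount of 64 its change was -2.21. Of the other measured subunits of phosphorylase kinase, PHKA2, a regulatory one, was called lower at this pair (-1.27 ± 0.40), as was PHKG2, a catalytic subunit (-0.98 ± 0.28), while catalytic PHKG1 was not called (0.68 ± 0.28, adjusted p = 0.0574). PHKA2 was also called lower at 28 dpn than at 94 dpc (-1.33 ± 0.40, adjusted p = 0.0171). The stage means of PHKA2, PHKG1 and PHKG2 were dim, between 79.0 and 463, against 1393 to 14431 for PHKB. The signal of PYGL, the phosphorylase of liver, had means of 371, 427, 666 and 428 at the 4 stages in order of age, and it was called higher at 28 dpn than at 1 dpn. At 28 dpn against 94 dpc 8 of the 26 were called in each direction (backgrounds 14.8% and 17.5%), as were 8 at 188 dpn against 1 dpn (backgrounds 16.7% and 21.3%).

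**Figure D5:**
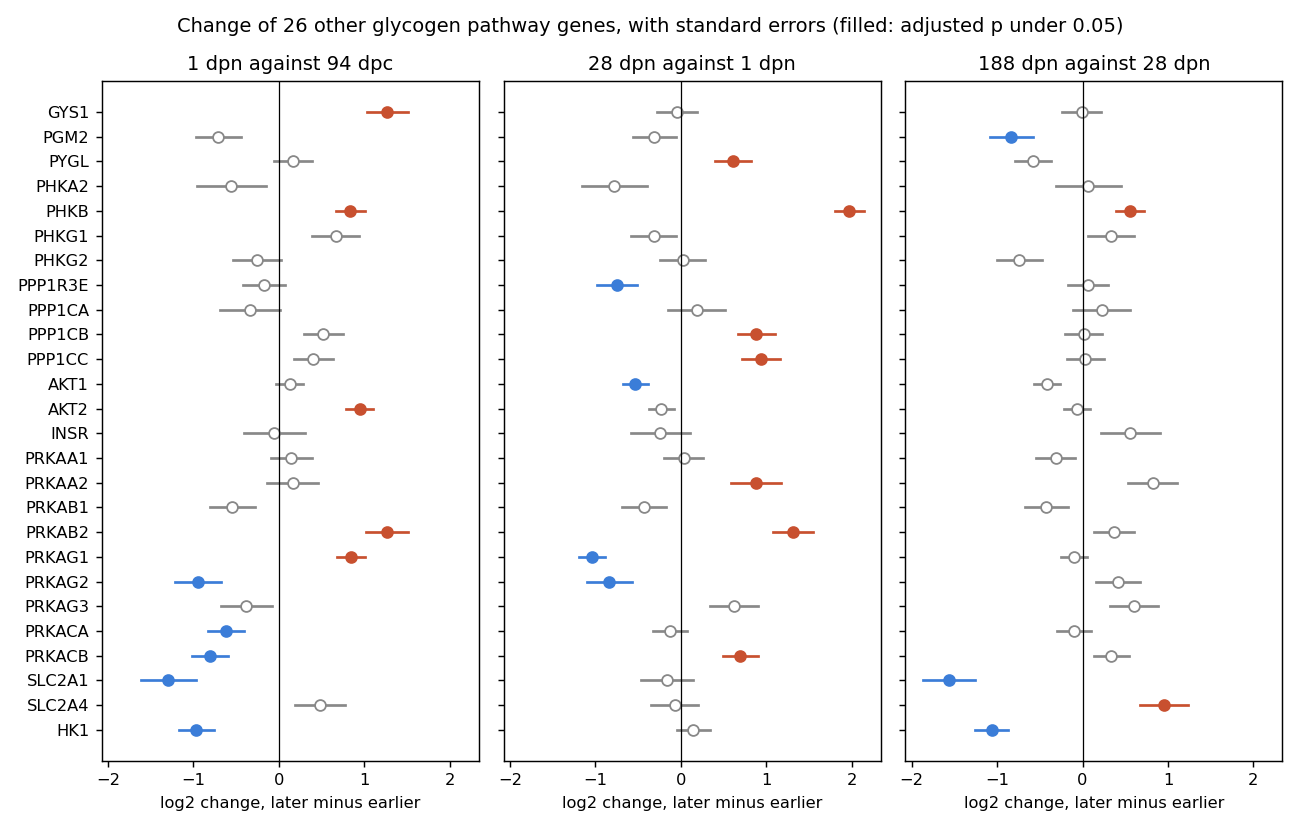
Change (log2, later minus earlier stage) of the 26 other measured genes of the glycogen lists at each step, with SE bars. Filled red is called higher, filled blue called lower and open grey not called; PHKB is called higher in all 3 panels.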

How the data were processed

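Total RNA of each sample was labelled as biotinylated cRNA from 0.5 ug, per the labels' protocols. The authors deposited intensities on a linear scale, with a single value for each probe set of an array, scaled to a common level: the 2% trimmed mean was 500.1 to 500.2 on all arrays. The submitters' processing notes list GCOS 1.1.1 and do not say what it did. The summarisation method is not given in the sources used here, and detection calls were not used. The number of arrays limits the precision.

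Values were taken as log2(signal + 16), and 124 control probe sets were left out. limma 3.58.1 (lmFit and eBayes, R 4.3.3) was fitted to all 23 arrays with 6 two-sided contrasts and an F test, each with Benjamini-Hochberg adjustment over 23999 probe sets. On simulated data, 30 to 39 of 100 planted log2 changes of 1 were recovered per comparison, and 78 to 88 of 100 planted changes of 2, with 6 to 9 false calls. Only the planted probe sets, drawn at random, changed there, whereas 3315 to 8814 were called per comparison in the data. The recovery therefore does not give the power of the tests reported here. Exact permutation tests compared differences between probe sets of a gene. Figures were drawn with matplotlib 3.10.9.

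Probe sets with several symbols named no gene. The genes, lists and tests were chosen with earlier results of these data known. All probe sets of the 6 genes were named. Of other listed genes, each by its probe set of highest mean, up to 6 called genes with the largest change were named per described stage pair, plus PYGL, PHKA2, PHKG1 and PHKG2, chosen after their values were seen, and the 3 genes of highest correlation were named for each of the 6. Replicate numbers follow accession order. Alternatives were other scalings and pseudocounts, fewer probe sets, only the stages compared, trend and robust eBayes, array weights, leaving out the newborn samples of low GAPDH ratio, that ratio as a covariate, and leaving out each sample. No sequences were printed, since none was in the files used here.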

Additional observations from a re-analysis of the deposited data

Results flagged for a closer look

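In 5 of 44 groups formed by a probe set and a stage, the highest sample stood apart from the others by Dixon's test on the linear signal. Chance flags about 1 in 20 groups if values are normally distributed. On the log2 scale of the fits, the gap was a smaller part of the range in each of these groups. The size of the gap thus depends on the scale. For PGM1 it stayed wide, with 15.05 in replicate 1 of 1 dpn against 12.62 to 13.46 in the other newborn samples. All 5 were at 1 dpn, and 4 were the same animal, replicate 1. Its PGM1 signal was 33922, against 6287 to 11257 in the other newborn samples. Its STBD1 signal (Ssc.13948.1.S1_at) was 2859, against 343 to 1001. Its signals for the dimmer PYGM probe sets were 4101 (Ssc.18344.2.A1_at), against 353 to 1545, and 2354 (Ssc.19476.1.S1_at), against 124 to 609. The remaining flag was replicate 2, whose UGP2 signal (Ssc.30801.1.A1_at) was 2687, against 686 to 1392. Replicate 1 also had the highest muscle marker sum of 1 dpn, 888352, and replicate 2 the lowest GAPDH ratio of the series, 0.0868. Their part in these values was not tested.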

How the results depend on the processing

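The count of called probe sets over the 4 stages was 11 under every alternative. With single samples left out, the counts per stage pair were 6 to 7 (1 dpn against 94 dpc), 8 to 9 (28 against 1 dpn), 1 to 2 (188 against 28 dpn), 10 to 11 (28 dpn against 94 dpc), 8 to 11 (188 against 1 dpn) and 10 (188 dpn against 94 dpc). Under the other settings they were 4 to 10, 7 to 9, 1 to 3, 11, 8 to 10 and 10. The 4 at 1 dpn against 94 dpc, in place of 7, came from fitting only those stages, with fewer samples, and the 1 at 188 against 28 dpn, in place of 2, from quantile normalization and from a pseudocount of 1. The cause of the last was not tested. Directions turned only in 2 uncalled log2 changes near 0. That of PPP1R3B at 28 against 1 dpn was 0.025 under quantile normalization and ranged from -0.328 to 0.128 with single samples left out. That of UGP2 (Ssc.5264.1.A1_at) at 188 against 28 dpn was 0.043 with median centring, 0.0064 with array weights and -0.173 to 0.0529 with single samples left out. Of 2168 values recomputed for all results, 2066 kept direction and side of the threshold, 64 lost a call and 27 gained one. Of the 26 other listed genes, 5 were called at 188 against 28 dpn, 8 with a pseudocount of 64, with trend and robust eBayes or with array weights, 8 of 22 tested without dimmer probe sets, 9 without the low-ratio samples, and 3 without replicate 6 of 28 dpn or without replicate 2 of 188 dpn. At 28 against 1 dpn 11 were called, 7 without replicate 4 of 1 dpn or without replicate 5 of 28 dpn, and 5 when only those stages were fitted, where the count of all called probe sets was 2453 in place of 4121. No paired analysis was possible because replicate numbers follow accession order and pair no samples.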
